A study of Mus musculus with 12 samples.

Results

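Nnt, the gene of the mitochondrial nicotinamide nucleotide transhydrogenase, was followed in mouse pancreas together with 9 other genes whose enzymes make or use NADPH in mitochondria: Idh2, Me2, Me3, Glud1, Mthfd2, Prdx3, Txn2, Txnrd2 and Gsr. The 10 genes were chosen by name among the 18194 genes with a probe set of their own on the array. They had 24 probe sets annotated to that gene alone, and each gene was represented by the probe set with the highest mean over all arrays, while every Nnt probe set was described. Tests were limited to probe sets with a signal over log2 4 on 3 or more of the 12 arrays. By this filter 17 of the 24 probe sets and 9 of the 10 genes were tested, and Me3 was not.

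Mice 8 weeks of age gave 1 pancreas and 1 array each, with 3 mice in each of 4 groups: C57BL6/J mice (from Jackson, called J here) with chronic pancreatitis induced by cerulein, C57BL6/NHsd mice (from Harlan, called NHsd here) with the same, saline-injected J mice and saline-injected NHsd mice. Cerulein is a peptide that acts on the cholecystokinin receptor of acinar cells, the cells that make digestive enzymes. The labels give the saline mice as female, give no sex for the cerulein mice and state no Nnt genotype. The organ was measured whole, so fewer cells of a type and less RNA per cell cannot be told apart in any value given here.

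The transhydrogenase sits in the inner mitochondrial membrane and uses the proton gradient to pass hydride from NADH to NADP, which makes NADPH in the matrix. The other matrix sources of NADPH are isocitrate dehydrogenase, the malic enzymes, glutamate dehydrogenase and the folate enzymes. NADPH is spent there by glutathione reductase and thioredoxin reductase, which keep the enzymes that remove hydrogen peroxide in their reduced, working form. Mice of the C57BL/6J substrain are known to carry a deletion of several internal exons of Nnt and to lack the working enzyme, and C57BL/6N lines are known to carry the intact gene. The comparison of J with NHsd therefore bears on Nnt itself and on the question whether transcripts of the other matrix NADPH enzymes differ with it.

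Signals, given as log2, lay between a floor of 2.39 and a top value of 16.4. Over log2 4 were 30.3% ± 0.66 of probe sets on cerulein arrays and 26.7% ± 0.31 on saline arrays (SD, n = 6 each), and 28.6% ± 2.01 on J arrays and 28.3% ± 2.05 on NHsd arrays (SD, n = 6 each). The 15 acinar markers measured averaged 12.71 ± 0.41 log2 on J arrays and 12.83 ± 0.30 log2 on NHsd arrays (SD, n = 6 each), with p = 0.561 in a two-sided exact permutation test and 0.934 when adjusted for 32 tests. Both treatments enter these SDs and this p, so a substrain difference could be missed. By group they averaged 12.35 ± 0.12 in J and 12.60 ± 0.23 in NHsd cerulein mice, and 13.07 ± 0.02 in J and 13.06 ± 0.07 in NHsd saline mice (log2, SD, n = 3 each). J cerulein replicate 1 correlated least with its group (mean r = 0.983), and it was the highest of the 12 for 5 of the 10 genes (Me2, Me3, Prdx3, Txn2 and Gsr). The number of arrays limits the precision: over all genes the standard error (SE) of a difference had a median of 0.20 between 3 and 3 arrays and 0.14 between 6 and 6.

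Nnt signals were lower in J than in NHsd mice on every array, with and without cerulein. Nnt lies on mouse chromosome 13. Its brightest probe set, 1456573_x_at, read 8.49, 8.74 and 8.78 log2 in J cerulein mice, against 9.89, 10.08 and 10.09 log2 in NHsd cerulein mice. The same probe set read 8.89, 8.82 and 8.62 log2 in J saline mice, against 10.24, 9.98 and 10.28 log2 in NHsd saline mice. The 6 J arrays and the 6 NHsd arrays did not overlap, and within each substrain the cerulein and saline arrays did. In order, lowest first, the group means were 8.67 ± 0.16 in J cerulein, 8.78 ± 0.14 in J saline, 10.02 ± 0.11 in NHsd cerulein and 10.17 ± 0.17 in NHsd saline mice (log2, SD, n = 3 each). The neighbours that did not differ beyond their spread were the cerulein and saline groups of the same substrain.

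A second Nnt probe set, 1416105_at, showed the same order of substrains on a dimmer scale. It read 6.50, 6.80 and 6.70 log2 in J cerulein mice, against 8.35, 8.09 and 8.19 log2 in NHsd cerulein mice. In saline it read 7.16, 6.96 and 6.65 log2 in J mice, against 8.08, 8.22 and 8.19 log2 in NHsd mice, and again no J array reached an NHsd array. The third probe set, 1432608_at, stood at the floor of 2.39 on all 12 arrays and says nothing about either substrain. The lowest J signals of the 2 brighter probe sets, 8.49 and 6.50 log2, were above log2 4. Where the probes lie relative to the exons deleted in C57BL/6J mice is not given in the sources used here.

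**Figure D1:**
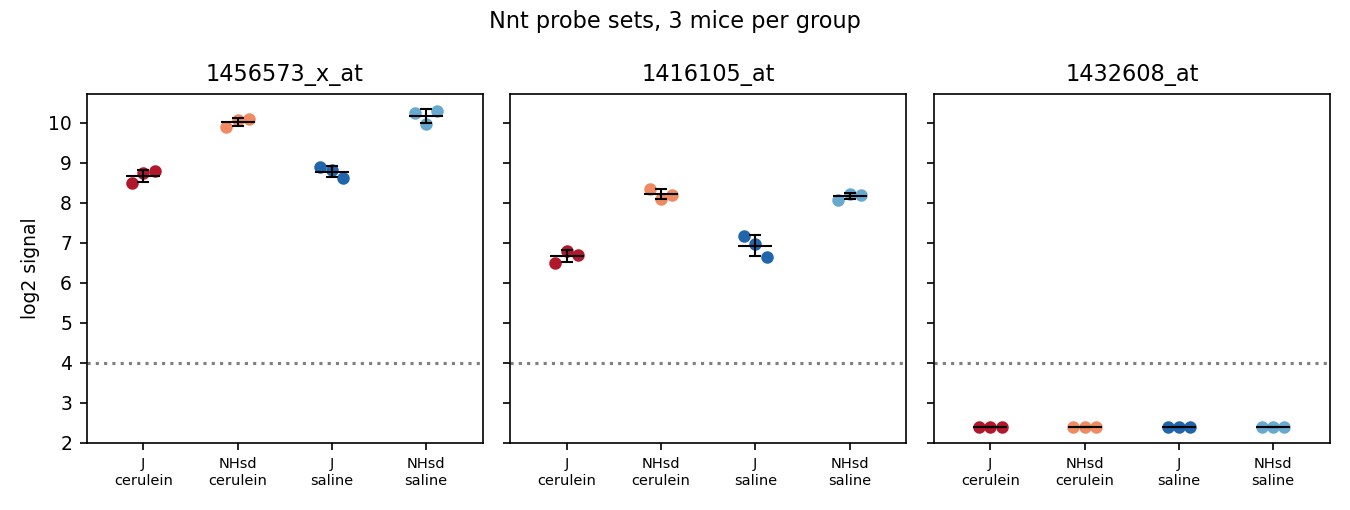
Log2 signal of the 3 Nnt probe sets in each mouse (points), by group, with the mean and SD of the 3 mice as bars and log2 4 as a dotted line. For 1456573_x_at and 1416105_at every J mouse lies below every NHsd mouse, with means of 8.67 and 10.02 log2 after cerulein and 8.78 and 10.17 log2 in saline for the first; 1432608_at is at the floor of 2.39 throughout.

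Differences were tested with limma on all genes that passed the filter, and calls were made under a Benjamini-Hochberg adjusted p of 0.05 over 8505 genes. As the mean of both treatments, Nnt was lower in J by 2.58-fold, a log2 difference of -1.37 (SE 0.099, 95% confidence interval -1.58 to -1.16, limma adjusted p = 5.60e-05). By its p it stood first among the 8505 genes, and 10 genes had a lower difference. Nnt was 1 of 12 genes called, or 0.141% of those tested, of which 0.0705% were higher and 0.0705% lower in J. The same share of genes, 0.141%, had J and NHsd arrays that did not overlap. In the fit of all 12780 probe sets that passed the filter, 1456573_x_at differed by -1.37 (limma adjusted p = 8.45e-05) and 1416105_at by -1.39 (SE 0.11, limma adjusted p = 0.000136), so the 2 probe sets gave nearly the same difference.

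The lower Nnt signal was present with each treatment, where 12.3% of all genes after cerulein and 12.6% in saline had substrains that did not overlap. After cerulein the difference, J minus NHsd, was -1.35 (SE 0.14, limma adjusted p = 0.00116), and Nnt was 1 of 19 genes called (0.223%). In saline it was -1.39 (SE 0.14, limma adjusted p = 0.00244), and Nnt was 1 of 5 genes called (0.0588%). The dimmer probe set 1416105_at differed by -1.55 after cerulein (SE 0.16, limma adjusted p = 0.00127) and by -1.24 in saline (SE 0.16, limma adjusted p = 0.0220). Cerulein minus saline, Nnt with its representative probe set differed by -0.10 in J (limma adjusted p = 0.539) and by -0.15 in NHsd mice (limma adjusted p = 0.387). The difference of these effects was 0.04 (95% confidence interval -0.39 to 0.47, limma adjusted p = 0.953). For 1416105_at the cerulein effects were -0.26 in J and 0.05 in NHsd mice (limma adjusted p = 0.175 and 0.821). The difference of effects for 1416105_at was -0.31 (95% confidence interval -0.79 to 0.17, limma adjusted p = 0.746). It was opposite in sign to 0.04, and neither was called. With only the 6 arrays of a treatment in the fit, the size of the Nnt difference was the same and its limma adjusted p was 0.107 after cerulein and 0.0628 in saline, where 0 genes of all were called in either. For 1416105_at in saline, leaving out single arrays gave differences of -1.10 to -1.36, and it was not called without J saline replicate 2 or 3 (limma adjusted p = 0.112 and 0.09) or without NHsd saline replicate 1, 2 or 3 (0.0769, 0.127 and 0.113).

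Among the other matrix sources of NADPH, Idh2 encodes the NADP-dependent isocitrate dehydrogenase of mitochondria (chromosome 7). Its probe set read 8.48, 8.48 and 8.38 log2 in J cerulein mice, against 8.61, 8.44 and 8.61 log2 in NHsd cerulein mice, and 8.10, 8.06 and 7.98 log2 in J saline mice, against 7.97, 7.95 and 8.02 log2 in NHsd saline mice. The substrains overlapped with each treatment. J minus NHsd as the mean of both treatments, Idh2 differed by -0.02 (SE 0.083, 95% confidence interval -0.20 to 0.16, limma adjusted p = 0.965).

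Mthfd2 encodes a mitochondrial methylenetetrahydrofolate dehydrogenase that passes hydride from the folate cycle to NAD or NADP (chromosome 6). It read 7.71, 7.57 and 7.25 log2 in J cerulein mice, against 7.66, 7.63 and 7.49 log2 in NHsd cerulein mice. In saline it read 8.64, 8.73 and 8.67 log2 in J mice, against 8.55, 8.83 and 8.52 log2 in NHsd mice, so the substrains overlapped and the treatments did not. The substrain difference was -0.02 (SE 0.11, 95% confidence interval -0.25 to 0.21, limma adjusted p = 0.972).

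The promoter windows of Mthfd2 and Idh2 are shown because these 2 genes had cerulein differences of opposite sign in both substrains in the values as deposited. They are RefSeq sequences of GRCm38.p6, windows of 300 bases around a listed transcript start, 5′ to 3′ on the gene's strand, which is the minus strand for both; capitals mark the CCAAT box, read on either strand (CCAAT or ATTGG).
Mthfd2, chr6:83317555-83317854: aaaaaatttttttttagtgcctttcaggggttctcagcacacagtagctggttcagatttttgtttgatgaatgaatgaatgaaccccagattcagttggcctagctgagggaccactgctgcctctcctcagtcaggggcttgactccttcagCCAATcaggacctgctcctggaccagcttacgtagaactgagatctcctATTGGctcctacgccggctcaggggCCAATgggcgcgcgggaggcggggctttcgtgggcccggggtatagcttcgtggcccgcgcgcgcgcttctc
Idh2, chr7:80115301-80115600: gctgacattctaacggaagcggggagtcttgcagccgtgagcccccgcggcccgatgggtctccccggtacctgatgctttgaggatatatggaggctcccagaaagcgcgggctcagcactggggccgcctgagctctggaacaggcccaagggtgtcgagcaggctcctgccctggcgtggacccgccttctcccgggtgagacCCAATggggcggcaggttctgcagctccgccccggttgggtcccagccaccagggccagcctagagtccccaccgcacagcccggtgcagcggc
Both windows lie inside the annotated span of their gene. The Mthfd2 window holds 3 CCAAT boxes and no GC box (GGGCGG on either strand), with 55.7% G and C, and the Idh2 window holds 1 CCAAT box and 2 GC boxes, with 68.3% G and C. Of all 32851 promoter windows in the table, 37.4% hold a CCAAT box and 35.7% a GC box. Of the 10 genes 7 had a window there, of which 3 (Mthfd2, Idh2 and Txn2) held a CCAAT box and 5 (Idh2, Glud1, Prdx3, Txn2 and Txnrd2) a GC box. The element TGATGNAA, read by factors of the amino acid response, was in the Me3 window alone of the 7 and in 3.97% of all windows, and TGACNNNGC, the core of the antioxidant response element, was in 0 of the 7 and in 12.4% of all. These matches describe letters in the windows and no binding was measured.

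Me2 and Me3 encode the malic enzymes of mitochondria, of which the Me3 enzyme uses NADP. Me2 read between 5.43 and 6.37 log2 over the 12 arrays and differed between substrains by 0.10 (SE 0.13, 95% confidence interval -0.19 to 0.39, limma adjusted p = 0.836). Me3 read 4.04, 3.39 and 3.42 log2 in J cerulein mice, against 3.42, 3.53 and 3.31 log2 in NHsd cerulein mice, and 3.21 to 3.43 log2 in J saline mice, against 3.43 log2 in each of the 3 NHsd saline mice. Me3 was above log2 4 on 1 array of 12, J cerulein replicate 1, and no level of it was tested.

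Glud1 encodes glutamate dehydrogenase, which turns glutamate into 2-oxoglutarate with NAD or NADP. It read 8.94, 9.19 and 9.07 log2 in J cerulein mice, against 9.40, 8.89 and 9.38 log2 in NHsd cerulein mice, and 9.62, 9.52 and 9.08 log2 in J saline mice, against 9.20, 8.89 and 9.28 log2 in NHsd saline mice. The groups overlapped. The difference, J minus NHsd, was -0.15 after cerulein and 0.28 in saline (95% confidence intervals -0.56 to 0.25 and -0.12 to 0.69), neither called by limma (adjusted p = 0.776 and 0.848).

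On the side that spends NADPH, Gsr encodes glutathione reductase (chromosome 8). It read 6.81, 6.65 and 6.36 log2 in J cerulein mice, against 6.44, 6.69 and 6.54 log2 in NHsd cerulein mice, and 6.24, 6.23 and 6.01 log2 in J saline mice, against 6.09, 6.03 and 5.93 log2 in NHsd saline mice. Substrain ranges overlapped with each treatment, and the mean difference was 0.09 (SE 0.11, limma adjusted p = 0.806). Txn2, for mitochondrial thioredoxin (chromosome 15), differed by 0.14 (SE 0.13, limma adjusted p = 0.765), and Prdx3, for the mitochondrial peroxiredoxin that thioredoxin reduces (chromosome 19), by 0.03 (SE 0.11, limma adjusted p = 0.952). Txnrd2, for mitochondrial thioredoxin reductase (chromosome 16), was dim, at 3.46 to 4.97 log2, with 5 of 12 arrays above log2 4 and 3 more probe sets that did not pass the filter. It differed by -0.0033 (SE 0.21, limma adjusted p = 0.998).

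**Figure D2:**
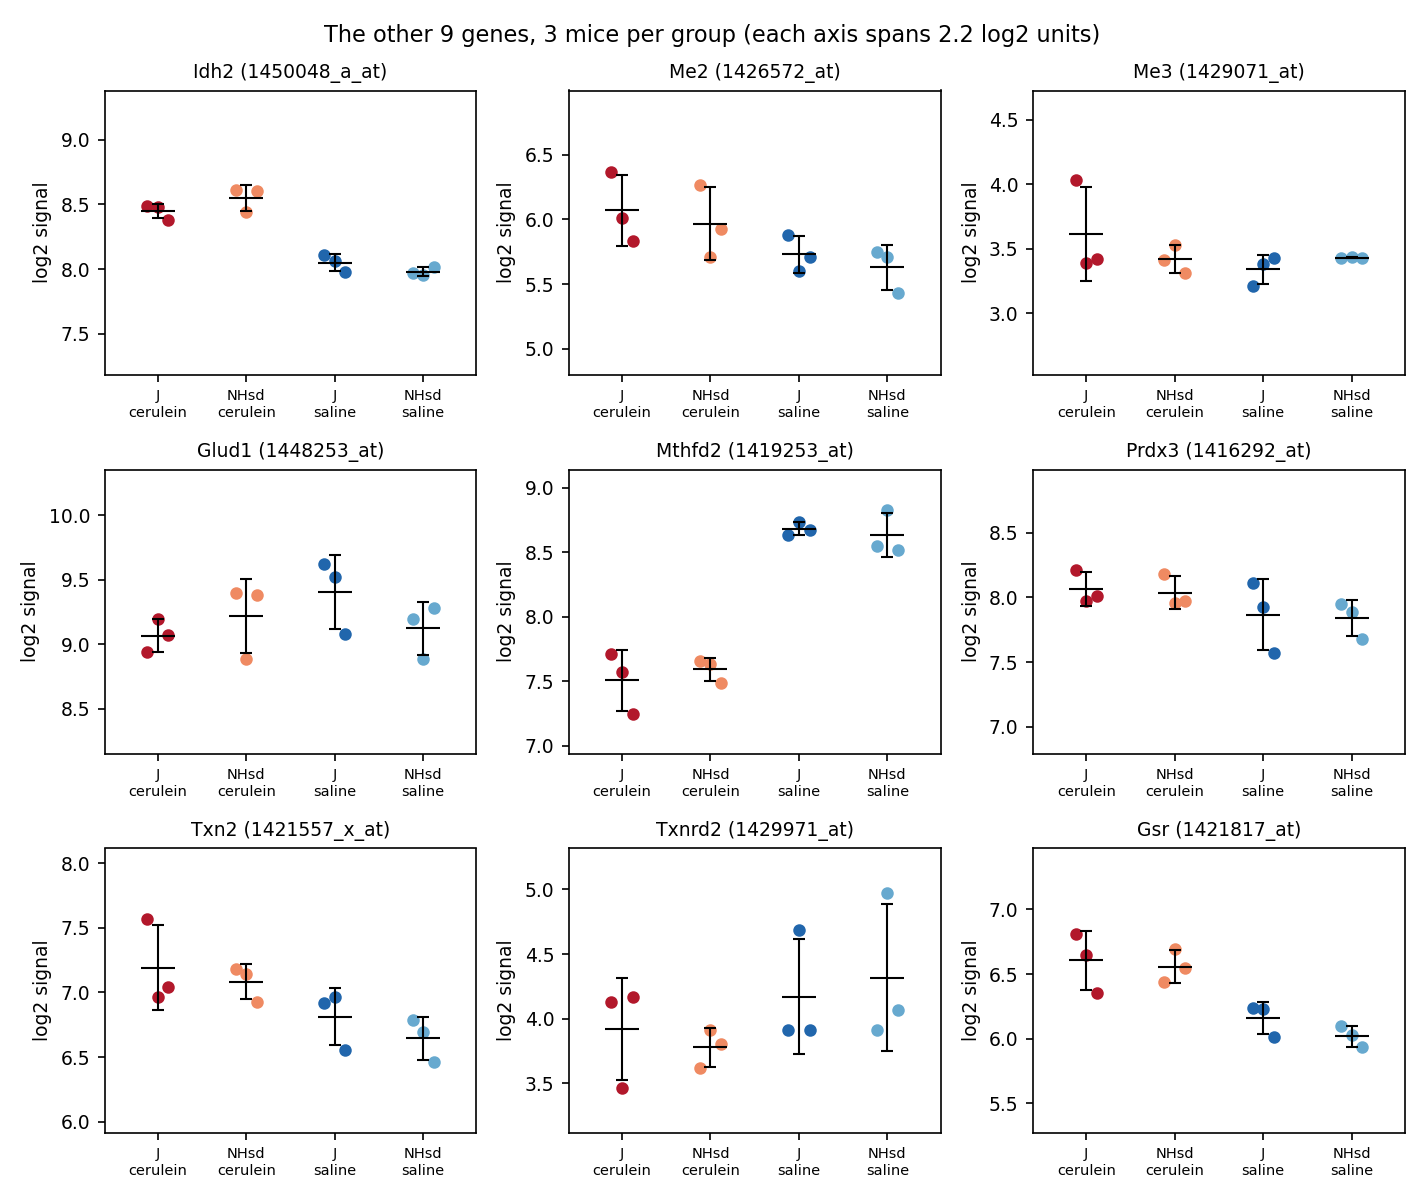
Log2 signal of the representative probe set of the other 9 genes in each mouse (points), by group, with mean and SD of the 3 mice; each panel spans 2.2 log2 units. J and NHsd mice overlap with each treatment in the panels of the 8 tested genes, and Mthfd2 separates by treatment, at 7.51 and 7.59 log2 after cerulein and 8.68 and 8.63 log2 in saline for J and NHsd mice.

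None of the 8 other genes tested was called between J and NHsd in either treatment or as their mean, where Nnt was the only one of the 9 tested genes called. Of all genes 0.141% were called as the mean, 0.223% after cerulein and 0.0588% in saline. With shares this small, no call among 8 genes says little about them. As the mean of both treatments their differences ran from -0.02 to 0.14 with a median of 0.05, beside a median of 0.06 over all 8505 genes. After cerulein they ran from -0.15 to 0.14 and in saline from -0.15 to 0.28, and 0 of the 8 had an unadjusted limma p under 0.05 in any of the 3 comparisons. With the representative probe sets the lowest unadjusted limma p was 0.317 as the mean of both treatments, 0.399 after cerulein and 0.153 in saline. Of all 8505 genes 722 had an unadjusted limma p under 0.05 as the mean of both treatments, 800 after cerulein and 546 in saline.

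A p that misses the threshold does not show equal levels, so the intervals give what the arrays could have missed. With the representative probe sets, as the mean of both treatments, the highest upper bound among the 8 genes was 0.46. This was a 1.37-fold higher level in J, for the dim Txnrd2. After cerulein it was 0.80, or 1.74-fold, again for Txnrd2, and in saline 0.69, or 1.61-fold, for Glud1. In the other direction the lowest lower bound was -0.47 as the mean of both treatments and -0.80 in saline, both for Txnrd2, and -0.56 after cerulein, for Glud1. Further probe sets of these genes reached beyond these bounds after cerulein. The upper bound was 0.83 for the Gsr probe set 1421816_at, and the lower bound was -0.63 for the Me2 probe set 1439526_at. The intervals are those of single genes or probe sets and are not adjusted for their number.

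**Figure D3:**
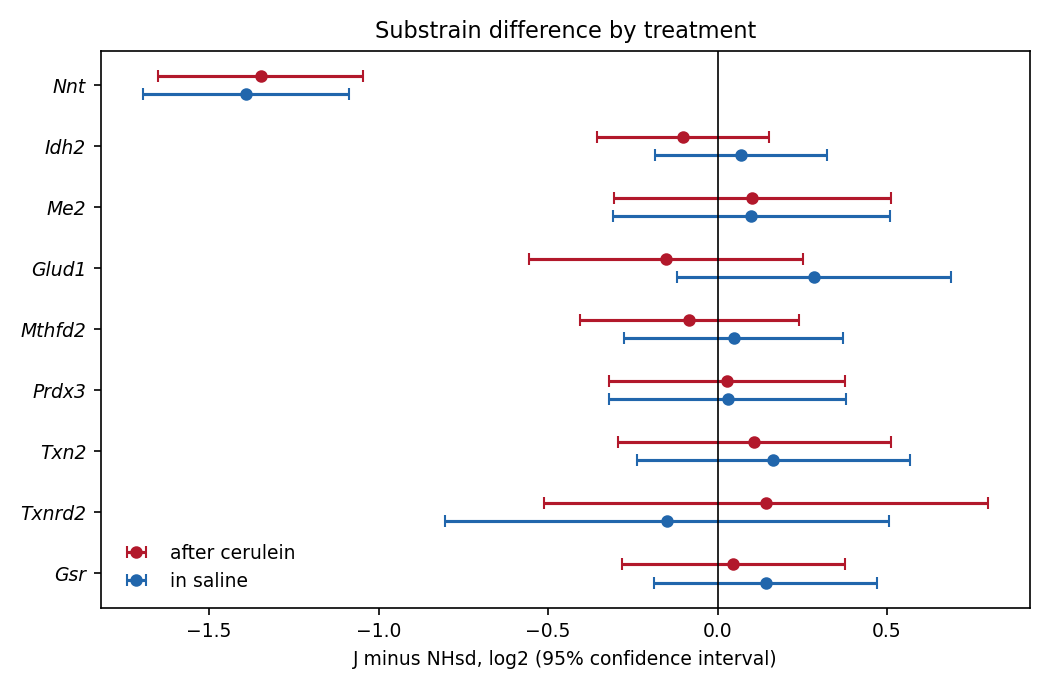
Log2 difference J minus NHsd (points) with its 95% confidence interval (lines) for the 9 tested genes, after cerulein (red) and in saline (blue). The Nnt intervals lie below -1.0 with both treatments, at -1.35 and -1.39, and every other interval includes 0.

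Further probe sets of these genes were compared between substrains as well. As the mean of both treatments, J minus NHsd, the second Mthfd2 probe set differed by -0.05, the second Glud1 probe set by 0.02, the second Gsr probe set by 0.13, the 2 further Me2 probe sets by 0.07 and -0.13, and the 2 further Txn2 probe sets by -0.02 and 0.06. None was called over the 12780 probe sets (limma adjusted p between 0.755 and 0.977). Some of these means join opposite signs. The Gsr probe set differed by 0.37 after cerulein and -0.12 in saline, and the Glud1 probe set by -0.03 and 0.07. The Txn2 probe sets differed by 0.13 and -0.16 (1455640_a_at) and by 0.26 and -0.14 (1452782_a_at). None of these was called with either treatment.

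Lists of genes around the matrix NADPH pool were compared as well. Of 10 mitochondrial NADPH sources 8 were tested, and 1, Nnt, was lower in J and none higher (0.0705% of all genes each way). The tested genes beyond the 10 in that list, of which Nadk2 and Mthfd2l are named after their values were seen, were Nadk2, the mitochondrial NAD kinase, at 0.27 (SE 0.19, limma adjusted p = 0.669), Mthfd2l, a relative of Mthfd2, at 0.23 (SE 0.19, limma adjusted p = 0.716), and Aldh1l2, the mitochondrial formyltetrahydrofolate dehydrogenase, at -0.16 (SE 0.16, limma adjusted p = 0.768). For Aldh1l2 and Mthfd2l this mean joins opposite signs. The group means of Aldh1l2 were 8.55 log2 in J and 9.19 log2 in NHsd cerulein mice, and 10.03 log2 in J and 9.70 log2 in NHsd saline mice. Mthfd2l differed by 0.53 after cerulein, the highest of the 8 sources tested there. The difference of its cerulein effects, J minus NHsd, was 0.60. Neither gene was called with either treatment. No gene was called among 9 mitochondrial peroxide and thiol enzymes, 9 cytosolic NADPH sources, 7 cytosolic thioredoxin and peroxiredoxin genes, 8 genes of glutathione synthesis and use, 10 serine and folate enzymes, 7 genes of NAD metabolism, 20 of the tricarboxylic acid cycle and 27 of mitochondrial content. The list medians ran from -0.03 to 0.12, beside 0.06 over all genes.

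Besides Nnt, 5 genes of the 9 lists had an unadjusted p under 0.05 and were chosen after their values were seen. Aldh1l1, the cytosolic formyltetrahydrofolate dehydrogenase, differed by -0.41 (SE 0.15, limma unadjusted p = 0.0178, limma adjusted p = 0.469). Naprt, which makes NAD from nicotinic acid, differed by -0.35 (SE 0.11, limma unadjusted p = 0.00745, limma adjusted p = 0.381). Gpx7, a glutathione peroxidase family member of the endoplasmic reticulum, differed by 0.36 (SE 0.16, limma adjusted p = 0.583), Dld, a subunit shared by the 2-oxoacid dehydrogenases, by 0.45 (SE 0.16, limma adjusted p = 0.432) and Slc25a4, an ADP and ATP carrier, by 0.45 (SE 0.13, limma adjusted p = 0.301). None of the 5 was called. The Gpx7 mean was above log2 4 only in J cerulein mice (4.61 log2), so the size of its difference is not exact. The mean over the 27 genes of mitochondrial content was 8.91 ± 0.29 log2 on J arrays and 8.83 ± 0.29 log2 on NHsd arrays (SD, n = 6 each), with p = 0.610 in a two-sided exact permutation test and 0.934 when adjusted for 32 tests. With every array centred on that list, Nnt was 1 of 16 genes called and again the only one of the 9 tested genes.

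**Figure D4:**
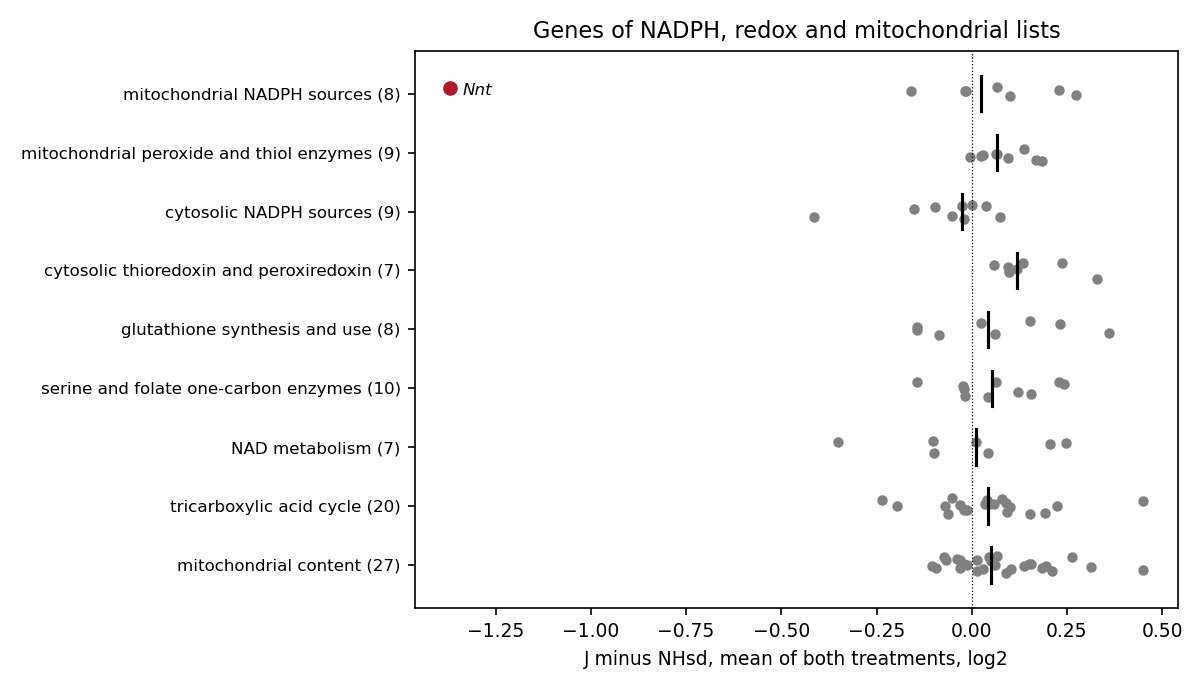
Log2 difference J minus NHsd, as the mean of both treatments, for each tested gene (points) of 9 lists, with the number of genes in brackets and the list median as a vertical bar. Nnt stands alone at -1.37, and all other genes lie between -0.41 and 0.45.

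The second question was how the same genes differed between cerulein and saline pancreas. As the mean of both substrains, in the values as deposited, Mthfd2 fell, and Idh2, Gsr, Txn2 and Me2 rose, while Nnt, Glud1, Prdx3 and Txnrd2 were not called. These counts, 4 higher and 1 lower of 9, stand beside 59.4% of all genes higher and 10.1% lower, and the median of the 9 genes was 0.20 beside 0.49 over all 8505 genes. A gene at the median therefore counts as higher in these values, and under scalings that removed this shift the calls of all 9 genes but Mthfd2 were different.

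Mthfd2 differed by -1.10, or 2.15-fold lower after cerulein (SE 0.11, 95% confidence interval -1.33 to -0.88, limma adjusted p = 2.03e-06), and no cerulein array reached a saline array, as for 4.94% of all genes in this direction. In J the difference was -1.17 (SE 0.15, limma adjusted p = 4.89e-05) and in NHsd mice -1.04 (SE 0.15, limma adjusted p = 0.000125). Its second probe set, 1419254_at, read 6.91, 6.93 and 6.91 log2 in J cerulein and 7.19, 7.02 and 6.68 log2 in NHsd cerulein mice, against 7.65, 7.90 and 8.17 log2 in J saline and 8.12, 8.03 and 7.72 log2 in NHsd saline mice. That probe set differed by -0.99 (SE 0.13, limma adjusted p = 2.14e-05), so both had all cerulein arrays below all saline arrays. In both substrains Mthfd2 was among the 165 genes with the lowest difference.

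Idh2 differed by 0.49, or 1.40-fold higher after cerulein (SE 0.083, limma adjusted p = 0.000215), and Gsr by 0.49 (SE 0.11, limma adjusted p = 0.00131). For both genes the cerulein arrays did not overlap the saline arrays, as for 40% of all genes in this direction, and both were called in J (0.40 and 0.45, limma adjusted p = 0.0119 and 0.0251) and in NHsd mice (0.57 and 0.54, limma adjusted p = 0.00139 and 0.00946). The call of Gsr in J ended without J cerulein replicate 1 or 2 or J saline replicate 3 (limma adjusted p = 0.0588, 0.0660 and 0.0925), with differences of 0.34, 0.42 and 0.37. In NHsd mice it ended with the mean of both Gsr probe sets (0.31, limma adjusted p = 0.129). The second Gsr probe set, 1421816_at, differed by 0.33 as the mean of both substrains and was not called (limma adjusted p = 0.0633); it differed by 0.58 in J (limma adjusted p = 0.0343) and by 0.087 in NHsd mice (limma adjusted p = 0.753). Within J 2 genes were higher and 1 lower, beside 47.8% and 7.61% of all genes, and within NHsd likewise 2 and 1, beside 48.7% and 6.6%.

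Txn2 differed by 0.41 (SE 0.13, limma adjusted p = 0.0143), and its cerulein and saline arrays overlapped. Its other probe sets gave larger differences, 0.76 for 1452782_a_at and 1.13 for 1455640_a_at (limma adjusted p = 0.000166 and 5.91e-06), so the size for this gene depends on the probe set. Me2 differed by 0.34 (SE 0.13, limma adjusted p = 0.0372) and by 0.59 and 0.56 with its 2 other tested probe sets. The call of Me2 ended without J cerulein replicate 1, NHsd cerulein replicate 1 or 3, J saline replicate 2 or 3, or NHsd saline replicate 3, with limma adjusted p between 0.0573 and 0.097, and with no filter on low signals (0.34, limma adjusted p = 0.0662).

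Nnt (-0.13), Glud1 (-0.12), Prdx3 (0.20) and Txnrd2 (-0.40) were not called (limma adjusted p = 0.268, 0.429, 0.134 and 0.115). Measured against the shift of all genes they looked different. With each array shifted to the same median of the tested genes, 42.4% of called genes were higher after cerulein, beside 85.5% in the values as deposited, and with quantile normalization 46.2% were higher. With equal medians Nnt, Glud1, Mthfd2, Prdx3 and Txnrd2 were called lower (-0.71, -0.70, -1.69, -0.38 and -0.98) and none of the 9 was higher, beside 36.1% of all genes lower and 26.6% higher. The same 5 genes were called lower with quantile normalization (-0.59, -0.55, -1.62, -0.31 and -0.79), beside 34.4% of all genes lower and 29.6% higher, and with the arrays centred on mitochondrial content (-0.63, -0.63, -1.61, -0.31 and -0.90), beside 31.9% lower and 29.7% higher. Mthfd2 was the only one of the 9 called in the same direction under all 4 scalings, as were both its probe sets.

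Under those 3 scalings Idh2, Me2, Gsr and the representative Txn2 probe set were not called, with differences of -0.25 to 0.00. The Txn2 probe set 1455640_a_at was called higher under all of them (0.54 to 0.62), while the probe set 1452782_a_at was not (0.17 to 0.25). The labels name no batch. Control RNA is added from outside the sample. Spike-ins of the hybridization step averaged 7.03 ± 0.14 log2 on cerulein arrays and 8.84 ± 0.41 log2 on saline arrays (SD, n = 6 each). The poly-A spike-ins, which pass through labelling, averaged 6.16 ± 0.47 log2 on cerulein arrays and 8.35 ± 0.35 log2 on saline arrays. The 3′ minus 5′ signal of Gapdh, a sign of RNA quality, was 0.83 ± 0.13 log2 on cerulein arrays and 1.22 ± 0.20 log2 on saline arrays. The part of these measures in the cerulein differences was not tested.

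**Figure D5:**
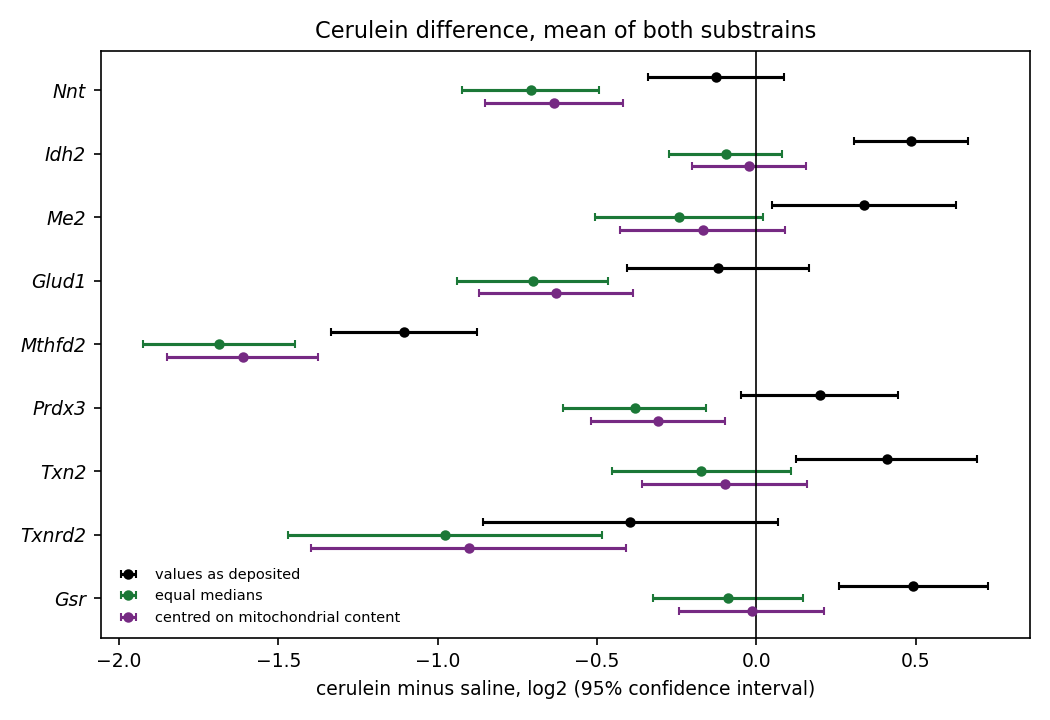
Log2 difference cerulein minus saline, as the mean of both substrains, with its 95% confidence interval for the 9 tested genes under 3 scalings. The Mthfd2 intervals lie below 0 in all of them, at -1.10 as deposited, -1.69 with equal medians and -1.61 centred on mitochondrial content, and the intervals of Idh2 and Gsr lie above 0 only for the values as deposited.

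Signals of cell type markers moved with the treatment. The mean over 15 acinar markers was 12.48 ± 0.22 log2 on cerulein arrays and 13.07 ± 0.05 log2 on saline arrays, a difference of -0.59. Over 16 macrophage markers it was 8.33 ± 0.28 log2 on cerulein arrays and 4.98 ± 0.22 log2 on saline arrays, a difference of 3.34, and over 13 stellate cell and fibroblast markers 8.39 ± 0.41 and 6.04 ± 0.22 log2, a difference of 2.35. Duct, islet and proliferation markers differed by 1.52, 0.88 and 2.98, and mitochondrial content by 0.51, from means of 9.13 ± 0.08 log2 on cerulein arrays and 8.62 ± 0.10 log2 on saline arrays (SD, n = 6 each). Each of these 7 lists had an exact permutation p of 0.00216, two-sided, the smallest that 6 against 6 arrays allow (adjusted p = 0.00989 over 32 tests), and 3 adipocyte markers differed by -0.07 (exact permutation p = 0.814). As a median over its genes mitochondrial content differed by 0.43, beside a median of 0.49 over all genes. With equal medians, the median difference of a list's genes was 2.66 for macrophage, 1.57 for stellate cell and fibroblast, 0.59 for duct, 2.22 for proliferation, 0.17 for islet and -1.02 for acinar markers, and -0.15 for mitochondrial content. Over all genes it was -0.095 in that scaling. The part of these cell types in the changes of the 9 genes was not tested. Between substrains, as the mean of both treatments, none of the 8 list means passed the exact permutation test. It shuffled the arrays of both treatments together, so the cerulein shift entered its spread and a substrain difference could be missed. For macrophage markers the SD was 1.94 over the 6 J arrays, but 0.26 within J cerulein and 0.27 within J saline arrays. Within a treatment 3 against 3 arrays cannot reach a p under 0.1, so the permutation test could not call any list there. The islet marker mean after cerulein was 9.28 to 9.36 log2 in J mice and 8.52 to 8.94 log2 in NHsd mice, which did not overlap (difference 0.64, exact permutation p = 0.1), and limma called 1 of its 10 genes, beside 0.223% of all genes.

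Genes of serine synthesis and folate use around Mthfd2 changed in both directions in the values as deposited. The counts of each list below stand beside 59.4% of all genes higher and 10.1% lower as deposited, and 26.6% higher and 36.1% lower with equal medians. Of 8 mitochondrial NADPH sources tested 3 rose and 2 fell, and of 10 serine and folate enzymes 3 rose and 3 fell. Aldh1l2 changed by -0.995 (SE 0.16, limma adjusted p = 0.00011) and Psat1, a phosphoserine aminotransferase of serine synthesis, by -0.79 (SE 0.11, limma adjusted p = 5.89e-05). Phgdh, which starts serine synthesis, was chosen after its values were seen and changed by -0.48 (SE 0.099, limma adjusted p = 0.000961), and Shmt2, the mitochondrial serine hydroxymethyltransferase that feeds Mthfd2, was likewise chosen and was 0.69 higher (SE 0.16, limma adjusted p = 0.0017). After equalising medians 0 of the 10 serine and folate enzymes were higher and 7 lower, beside 26.6% and 36.1% of all genes; Aldh1l2 differed by -1.58 and Psat1 by -1.37.

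Of 9 mitochondrial peroxide and thiol enzymes 5 rose, a share near the 59.4% of all genes, and 1 fell. That gene was Glrx2, named after its values were seen (-0.53, SE 0.11, limma adjusted p = 0.000667). Glrx5, for a glutaredoxin of iron-sulfur cluster assembly, rose by 0.71 (SE 0.15, limma adjusted p = 0.00103) and Gpx1, a glutathione peroxidase of cytosol and mitochondria, by 0.63 (SE 0.11, limma adjusted p = 0.00033). With equal medians 0 of the 9 were higher and 4 lower, and neither Glrx5 (0.13) nor Gpx1 (0.04) was called.

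In the cytosol Pgd, for the 6-phosphogluconate dehydrogenase of the pentose phosphate route to NADPH, rose by 1.63 (SE 0.13, limma adjusted p = 5.48e-07), and Aldh1l1 changed by -2.16 (SE 0.15, limma adjusted p = 1.72e-07). Among 9 cytosolic NADPH sources 5 rose and 1 fell, again near the share of all genes. With equal medians 1 was higher (Pgd at 1.05) and 4 were lower. Of 7 cytosolic thioredoxin and peroxiredoxin genes 6 rose and 1 fell, with the peroxiredoxin gene Prdx2 1.44 higher (SE 0.11, limma adjusted p = 2.32e-07) and Txnip, for a thioredoxin-binding protein, 1.24 higher (SE 0.16, limma adjusted p = 2.74e-05). With equal medians 4 of these 7 were higher, Prdx2 by 0.86 and Txnip by 0.66, and 1 was lower. Among 8 glutathione genes 4 rose and 2 fell, which became 4 and 4 once medians were equal. Gpx3, a secreted glutathione peroxidase, rose by 2.36 (SE 0.23, limma adjusted p = 2.88e-06) and Gpx7 by 1.34 (SE 0.16, limma adjusted p = 1.11e-05). Gpx7 had saline means and an NHsd cerulein mean (3.86 log2) under log2 4, where the size of a change is blunted.

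Of 7 genes of NAD metabolism 2 rose and 2 fell (1 and 5 with equal medians). Nampt, the rate-limiting enzyme of NAD salvage, rose by 1.37 (SE 0.17, limma adjusted p = 2.13e-05, saline means under log2 4) and Sirt3, the main deacetylase of mitochondria, by 0.43 (SE 0.14, limma adjusted p = 0.0159), which was not called with equal medians (-0.15). Of 20 genes of the tricarboxylic acid cycle 13 rose and 1 fell (3 and 8 with equal medians). The 13 of 20, like 17 of 27 genes of mitochondrial content, were near the 59.4% of all genes. Dld rose by 1.41 (SE 0.16, limma adjusted p = 6.49e-06) and Mdh2, the mitochondrial malate dehydrogenase, by 1.32 (SE 0.092, limma adjusted p = 1.58e-07). Of 27 genes of mitochondrial content 17 rose and 1 fell, or 5 and 11 under equal medians. The chaperonin gene Hspd1 was 1.94 higher (SE 0.13, limma adjusted p = 1.24e-07) and Slc25a4 was 1.76 higher (SE 0.13, limma adjusted p = 2.12e-07). Dld, Mdh2, Hspd1, Slc25a4, Pgd, Prdx2, Txnip, Gpx3 and Nampt were also higher under all 3 other scalings.

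The cerulein effect was then set against the substrain. In the test of the difference of effects, J minus NHsd, 0 of the 9 genes were called, beside 1 of 8505 genes (0.0118%), and 598 of all genes had an unadjusted limma p under 0.05. For the 9 genes the differences of effects ran from -0.44 for Glud1 (95% confidence interval -1.01 to 0.14) to 0.29 for Txnrd2 (95% confidence interval -0.63 to 1.22). For Idh2 and Mthfd2 they were -0.17 (95% confidence interval -0.53 to 0.19) and -0.13 (95% confidence interval -0.59 to 0.33). In the 9 lists of the NADPH, redox and mitochondrial genes 0 genes were called. Among the 8 mitochondrial NADPH sources tested, the differences of effects ran from -0.97 for Aldh1l2 to 0.60 for Mthfd2l.

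Genes whose signals followed Nnt across the 12 arrays were found by Pearson correlation with 1456573_x_at over 8501 genes, as a description of arrays that share substrain and treatment. The highest values were those of Wdfy1, an endosomal adaptor (r = 0.87), the immunoglobulin genes Iglv1 (0.80) and Igkv8-30 (0.76), Os9, of protein quality control in the endoplasmic reticulum (0.75), and the regenerating family gene Reg3d (0.75). The lowest were those of Papss1, which makes the sulfate donor PAPS (-0.86), Ogfr (-0.81), Bpnt2 (-0.81), Prelid1 (-0.80) and Knstrn (-0.75). Since Nnt separated the substrains, genes chosen for following it differ between them by that choice, and their differences are a description. J minus NHsd as the mean of both treatments, the differences were -1.80 for Wdfy1, -3.91 for Iglv1 and 0.74 for Papss1. Wdfy1 and Iglv1 had J saline means under log2 4 (3.97 and 3.28), so their differences are not exact. Wdfy1 read 4.39 and 6.44 log2 in J and NHsd cerulein mice and 3.97 and 5.53 log2 in J and NHsd saline mice, as group means. The r of the 8 other members with Nnt ran from -0.34 for Txn2 to 0.07 for Mthfd2.

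Genes next to Nnt on chromosome 13, chosen after the Nnt values were seen, were not called between substrains, where 0.141% of all genes were called. Of the 5 annotated protein-coding genes with a probe set on each side, 6 were tested: Mrps30, Isl1, Paip1, 4833420G17Rik, Tmem267 and Hmgcs1. Their differences, J minus NHsd as the mean of both treatments, ran from 0.09 for Mrps30 to 0.80 for Tmem267 (SE 0.28, limma adjusted p = 0.445), all with the sign opposite to that of Nnt. The unadjusted limma p was 0.0143 for Isl1, 0.0149 for Tmem267 and 0.0357 for Paip1, and 0.170 to 0.536 for the others. Isl1 was dim, with a mean of 4.40 log2 in J cerulein mice and means under log2 4 in the other groups. It averaged 3.63 log2 in NHsd cerulein, 3.12 log2 in J saline and 3.05 log2 in NHsd saline mice. Its difference was 0.77 after cerulein and 0.07 in saline, so its size and p are not exact. Of all 8505 genes 722 had an unadjusted p under 0.05, so these neighbours are not shown to be unchanged.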

How the data were processed

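RNA of 12 mouse pancreases was extracted with Trizol and RNeasy columns, and biotin-labelled cRNA made from 100 ng was hybridised to Affymetrix 3′ expression arrays, as the labels' protocols say. Log2 signals per probe set were deposited by the authors; GCRMA and Partek are named, without versions, in the submitters' processing notes. The values were used as deposited. Of 45101 probe sets 34958 had 1 gene symbol, 932 several and 9211 none in the platform annotation; unnamed and several-symbol probe sets were left out, and the 34754 gene IDs found in RefSeq changed no symbol. The 10 genes, gene lists and tests were chosen with earlier results of these data known.

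The probe set with the highest mean stood for a gene, if above log2 4 on at least 3 of 12 arrays. limma 3.58.1 (R 4.3.3; lmFit with a mean per group, all 12 arrays, 8 residual degrees of freedom, eBayes with an intensity trend) gave two-sided tests, with Benjamini-Hochberg adjustment over 8505 genes at a threshold of 0.05, and a like fit over 12780 probe sets. List means per array were compared with exact permutation tests. Intervals are 95%. Tables and plots were made in Python 3.11.15 (matplotlib 3.10.9, numpy 2.4.6, pandas 2.3.3), and the fit was tested on simulated data. No 2 arrays held the same values (highest correlation 0.991). The samples are labelled as biological replicates.

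Genes named were the 10 members with every Nnt probe set, the 2 called genes with the largest change per list in each main comparison, and the 5 highest and 5 lowest correlations with Nnt; any other is said to be chosen after its values were seen. Alternatives tried were quantile normalization, equal medians, centring on mitochondrial content, no filter, a filter at log2 6, averaging the probe sets of a gene, no trend, robust moderation, only the groups compared, a replicate block and leaving out each array.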

Additional observations from a re-analysis of the deposited data

How the results depend on the processing

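Nnt was lower in J as the mean of both treatments in all 21 alternatives, at -1.47 to -1.32, and none of the other members was called between substrains in any alternative. Under quantile normalization, equal medians and centring on mitochondrial content, 0 members were higher after cerulein, as the mean of both substrains, in J and in NHsd mice, and lower members numbered 5, 5 and 5 as the mean, 3, 5 and 3 in J, and 3, 5 and 3 in NHsd mice. As the mean, the sign turned for Prdx3 (-0.31, -0.38, -0.31), Txn2 (-0.161, -0.173, -0.099), Gsr (-0.092, -0.089, -0.015) and Me2 (-0.25, -0.24, -0.17) under these 3 scalings in that order, and for Idh2 under the last 2 (-0.096, -0.023). In J it turned under all 3 for Gsr (-0.124, -0.131, -0.068), Idh2 (-0.094, -0.177, -0.114), Prdx3 (-0.33, -0.38, -0.31), Txn2 (-0.174, -0.195, -0.133) and Me2 (-0.23, -0.24, -0.17). In NHsd mice it turned under all 3 for Prdx3 (-0.28, -0.39, -0.30), Glud1 (-0.32, -0.49, -0.41), Txn2 (-0.149, -0.150, -0.066) and Me2 (-0.27, -0.25, -0.17), for Gsr under the first 2 (-0.061, -0.047) and for Idh2 with equal medians (-0.016). With the mean of probe sets 4 members were higher after cerulein in J. With only the groups compared, members lower in J numbered 0 after cerulein and 0 in saline, and members higher after cerulein in J numbered 1. There 1456573_x_at stood at -1.35 after cerulein and -1.39 in saline (limma adjusted p = 0.116 and 0.105) and 1416105_at at -1.55 and -1.24 (limma adjusted p = 0.110 and 0.211).

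The shared replicate numbers were not used to pair the mice. Same-number deviations correlated at -0.16 to 0.34 over 18 pairs, with 6 over 0.1. Deviations of different number correlated at -0.37 to 0.25 over 36 pairs, with 8 over 0.1. Such correlations cannot show that the mice were unpaired. With a replicate block 1416105_at in saline was -1.24 (limma adjusted p = 0.0662), genes called J against NHsd numbered 7 after cerulein and 2 in saline, and Txn2 in NHsd mice was called (0.44, limma adjusted p = 0.0303). Leaving out single arrays gave 1 to 2 higher and 1 to 2 lower members after cerulein in J, 3 to 4 higher as the mean, and -1.36 to -1.10 for 1416105_at in saline. Within J mice Glud1 was called lower after cerulein than in saline without J saline replicate 3 (-0.50).

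Counts over all genes moved by more than 1.5 times in these cases; the cause was not tested beyond the fewer genes of the stricter filter. J against NHsd as the mean gave 12 genes, with 21 under quantile normalization, 25 with no filter and 5 to 39 on leaving out an array. After cerulein it gave 19, with 10 with no filter and 5 to 89 on leaving out an array (89 without NHsd cerulein replicate 3), and in saline 5, with 37 and 1 to 9. Cerulein against saline gave 5904, 4716 in J and 4700 in NHsd mice, and 3543, 2890 and 2955 with the filter at log2 6. The difference of effects gave 1, with 15 with no filter, 3 centred on mitochondrial content, 2 with no trend, 0 under quantile normalization, equal medians and the filter at log2 6, and 0 to 5 on leaving out an array. The number of arrays limits what could be seen, Me3 and most Txnrd2 values lay near or under log2 4, and transcript levels are not enzyme activity.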
